A study of Mus musculus with 6 samples.

Results

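The lymphotoxin beta receptor gene Ltbr, the tumour necrosis factor (TNF) receptor genes Tnfrsf1a and Tnfrsf1b and 7 genes of the NF-kB pathway were examined in 3 subsets of thymic endothelial cells (ECs). The 10 genes were chosen by name out of 24457 genes on chromosomes in each table, and all 10 were above the filter on low values that 11717 genes passed. The ECs came from wildtype female C57BL/6 mice aged 4 to 6 weeks, without treatment or gene deletion in any group. CD31+CD45-EpCAM- cells of the digested thymus were sorted by surface Ly6C and P-selectin (Selp) into Ly6C+Selp- ECs (type I in the labels), Ly6C+Selp+ ECs (type II) and Ly6C-Selp+ ECs (type III), and RNA was sequenced from 2 libraries of each subset, 6 in all. The study proposed the type III ECs as the portal through which blood progenitors enter the thymus and asked how LTbR controls them, so the comparison here was whether the receptor and its signalling genes were transcribed at different levels in the subsets. Whether the libraries of a subset came from separate mice or pools is not given in the labels, so the p-values measure only the spread between these samples.

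LTbR is a receptor of the TNF receptor family on stromal cells and endothelium, and it binds lymphotoxin and LIGHT, which lymphocytes make. It engages the non-canonical arm of NF-kB: without a signal, TRAF3 holds the kinase NIK (Map3k14) at a low level, and when TRAF3 is removed NIK leads to the processing of the Nfkb2 product, which enters the nucleus with RelB. TNFR1, the product of Tnfrsf1a, engages the canonical arm. There, IkB proteins such as IkB-alpha (Nfkbia) are degraded and release dimers of RelA and the Nfkb1 product. LTbR is not limited to the non-canonical arm, since work cited in the study describes LTbR signalling through both NF-kB pathways. Much of this control acts on proteins, through degradation, processing and movement into the nucleus, and transcript levels do not measure it. In lymph nodes LTbR signalling is known to maintain high endothelial venules.

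The values are FPKM, fragments of a gene divided by transcript length and by library depth, and levels of different genes can be set side by side. The fragments estimated from the confidence intervals in the tables summed to between 1452476 and 2423171 per library. Endothelial identity was seen in all 6 libraries, where the 8 endothelial markers together reached 1962 to 2564 FPKM and none was at 0. Selp was at 6.54 ± 1.89 FPKM in type I, 364 ± 72.5 in type II and 591 ± 92.8 in type III ECs, and Ly6c1 was at 851 ± 225, 436 ± 121 and 79.7 ± 28.2 (mean ± SD, n = 2 each), in the order of the sort. Markers of other cells were also present. The 9 thymocyte and T cell markers summed to 104 and 27.0 FPKM in replicates 1 and 2 of type I ECs, 73.0 and 44.6 in type II ECs and 193 and 84.1 in type III ECs. The 8 myeloid and B cell markers summed to 512 and 112, 323 and 184, and 970 and 300 FPKM in the same order, so in each subset replicate 1 was the higher, and the first type III library was the highest of all. Cd74 was the highest of these 8 genes in every library, at 536 and 227 FPKM in type III ECs. The 7 pericyte and fibroblast markers summed to 504 and 207, 559 and 310, and 150 and 163 FPKM, lowest in type III ECs. In types I and II the largest single part was Rgs5, at 346 and 114, and 284 and 137 FPKM, against 48.6 and 45.4 in type III ECs. Acta2 was higher in type III (16.9 and 33.8 FPKM) than in type I ECs (13.7 and 7.53), and the other genes of the list were lower or overlapped. The 6 thymic epithelial markers stayed between 12.9 and 49.1 FPKM and the 4 lymphatic markers between 9.85 and 30.1. The lymphatic sum hides opposite directions. Flt4 was at 20.0 and 16.7 FPKM in type I and 9.45 and 7.15 in type III ECs. Prox1 was at 0.324 and 0.519 in type I and 3.05 and 3.22 in type III ECs. Lyve1 was at 0 in both type I libraries and at 12.4 and 1.07 in type III ECs, and Pdpn overlapped. The part of these cells in the values of the 10 genes was not tested. In bulk RNA, fewer cells of a type and less RNA per cell cannot be told apart.

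All 3 receptor genes were transcribed in every library, and none passed the test between any pair of subsets. Ltbr (mm9, chromosome 6, 125256589 to 125263888, minus strand) was at 43.3 and 34.7 FPKM in type I ECs, 32.6 and 32.9 in type II ECs and 34.5 and 43.9 in type III ECs. The type I and type III libraries covered nearly the same range, and both type II libraries were below it. The difference of type III minus type I ECs was 0.00 on the log2(FPKM + 1) scale (95% interval -0.57 to 0.57, limma adjusted p = 1.00). Within replicate 1 it was -0.32 and within replicate 2 it was 0.33. Ltbr had more transcript per length than 90.1% of the tested genes, and its level rested on an estimated 146 to 316 fragments per library.

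Tnfrsf1a, which encodes TNFR1, the main signalling receptor for TNF, was the highest of the 3 receptors. It lies 35.9 kb from Ltbr on the other strand (chromosome 6, 125299741 to 125312501). Its FPKM was 114 and 81.1 in type I ECs, 99.9 and 105 in type II ECs and 105 and 125 in type III ECs. The second type I library was the lowest and the second type III library the highest, and type I and type III ECs overlapped. Type III minus type I ECs gave a difference of 0.25 (95% interval -0.32 to 0.82, limma adjusted p = 0.77).

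Tnfrsf1b, which encodes TNFR2, was the lowest receptor (chromosome 4, 144802271 to 144836773, minus strand). It was at 15.1 and 11.7 FPKM in type I ECs, 11.4 and 13.9 in type II ECs and 17.1 and 19.0 in type III ECs. Both type III libraries were above the other 4, which overlapped each other. The difference was 0.41 against type I ECs (95% interval -0.21 to 1.02, limma adjusted p = 0.61) and 0.49 against type II ECs (95% interval -0.13 to 1.10, limma adjusted p = 0.62). Division of each library by its median ratio to the geometric mean of all libraries, called scaling below, left Tnfrsf1b in type III ECs above type I ECs without overlap, but not above type II ECs.

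**Figure D1:**
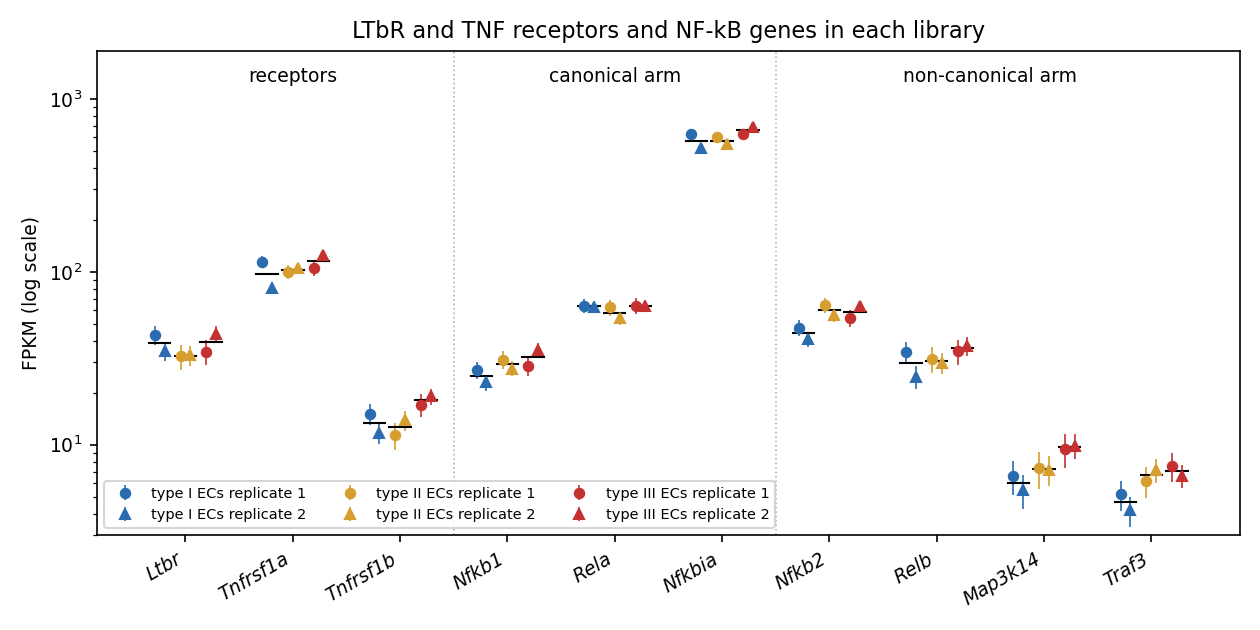
FPKM (log axis) of the 10 genes in each of the 6 libraries, with circles for replicate 1 and triangles for replicate 2. Vertical lines are the 95% intervals deposited with the FPKM, and horizontal bars are the mean of 2 libraries. Nfkbia stands highest, at 523 to 689 FPKM, Map3k14 and Traf3 stand lowest, below 10 FPKM in every library, and the subsets of each gene lie close together.

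In the canonical arm, Nfkbia was the highest gene of the 10 and higher than 99.7% of all tested genes. Its product, IkB-alpha, is an inhibitor whose own gene is a classical NF-kB target (chromosome 12, 56590396 to 56593634, minus strand). It was at 626 and 523 FPKM in type I ECs, 600 and 547 in type II ECs and 628 and 689 in type III ECs. The type III libraries were the highest, but the first of them exceeded the first type I library by less than the width of either deposited interval. The difference of type III minus type I ECs was 0.20 (95% interval -0.31 to 0.72, limma adjusted p = 0.81).

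Rela, which encodes the transactivating subunit of the canonical arm, was the most even of the 10 genes (chromosome 19, 5637490 to 5648130, plus strand). Its FPKM was 63.6 and 63.0 in type I ECs, 62.2 and 53.9 in type II ECs and 63.6 and 63.8 in type III ECs. The highest library was 1.18 times the lowest, a ratio smaller than that of all but 0.343% of the 11089 tested genes that were above 0 in every library. After scaling, the libraries of type I ECs were at 53.6 and 74.2. Between type III and type I ECs the difference was 0.01 (95% interval -0.50 to 0.52, limma adjusted p = 0.99).

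Nfkb1, the precursor of the DNA-binding partner of RelA, was at 27.1 and 22.9 FPKM in type I ECs, 31.0 and 27.6 in type II ECs and 28.7 and 35.5 in type III ECs (chromosome 3, 135247619 to 135354511, minus strand). Both Selp+ subsets were above type I ECs without overlap and overlapped each other. The difference of type III minus type I ECs was 0.35 (95% interval -0.22 to 0.92, limma adjusted p = 0.65), and scaling made these subsets overlap.

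None of the 4 genes of the non-canonical arm passed the test. Each had its lowest mean in type I ECs, but so did Nfkb1 of the canonical arm and Tnfrsf1a. After scaling Nfkbia did too, so this order was not particular to the arm, and the share of all tested genes is not given. Nfkb2, the precursor that NIK signalling has processed, was at 47.6 and 41.0 FPKM in type I ECs, 63.9 and 56.3 in type II ECs and 53.8 and 63.1 in type III ECs (chromosome 19, 46379227 to 46386580, plus strand). The Selp+ subsets overlapped each other, and all 4 of their libraries were above the type I libraries. The difference against type I ECs was 0.43 for type II ECs (95% interval -0.10 to 0.97, limma adjusted p = 0.78) and 0.39 for type III ECs (95% interval -0.14 to 0.93, limma adjusted p = 0.56). Scaling kept type II above type I ECs without overlap, at 62.4 and 61.9 against 40.1 and 48.3 FPKM, and made type III and type I ECs overlap.

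Relb, which encodes the partner of the processed Nfkb2 product, was at 34.4 and 24.7 FPKM in type I ECs, 31.5 and 29.8 in type II ECs and 34.7 and 37.5 in type III ECs (chromosome 7, 20191571 to 20214787, minus strand). The first type I library was within 1 FPKM of the first type III library, and the second was the lowest of the 6. Type III minus type I ECs gave a difference of 0.30 (95% interval -0.28 to 0.88, limma adjusted p = 0.72). It was 0.01 within replicate 1 and 0.58 within replicate 2.

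Map3k14, which encodes NIK, was at 6.57 and 5.46 FPKM in type I ECs, 7.29 and 7.17 in type II ECs and 9.40 and 9.90 in type III ECs (chromosome 11, 103081078 to 103128715, minus strand). The subsets stood in that order with no overlap in any pair, before and after scaling, an order held in the same way by 2.46% of the tested genes. The fitted difference, type III minus type I ECs, was 0.61 (95% interval -0.03 to 1.24, unadjusted p = 0.059, limma adjusted p = 0.39), the largest of the 10, and was 0.46 within replicate 1 and 0.75 within replicate 2. With the replicate number as a block its unadjusted p was 0.028 and its adjusted p 0.17 in limma. The gene rested on an estimated 67.0 to 152 fragments per library, the fewest of the 10, and it overlaps 1700028N14Rik on the same strand.

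Traf3, which encodes the adaptor that keeps NIK low, was the lowest of the 10 genes by mean (chromosome 12, 112404581 to 112505366, plus strand). It was at 5.17 and 4.17 FPKM in type I ECs, 6.17 and 7.14 in type II ECs and 7.53 and 6.62 in type III ECs. Both Selp+ subsets were above type I ECs without overlap, also after scaling, and overlapped each other. From type I to type III ECs the difference was 0.51 (95% interval -0.15 to 1.18, limma adjusted p = 0.53), so the transcripts of the kinase and of the adaptor that limits it had differences of the same sign. Traf3 overlaps 4930595D18Rik on the other strand, and Nfkb2 overlaps Psd. The use of strand in the counting is not given in the sources used here, so reads of overlapping genes may not be told apart.

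By the mean over all 6 libraries the order of the levels was Nfkbia, Tnfrsf1a, Rela, Nfkb2, Ltbr, Relb, Nfkb1, Tnfrsf1b, Map3k14 and Traf3. Nfkbia, Tnfrsf1a, Tnfrsf1b and the pair of Map3k14 and Traf3 were each separated from their neighbours in every library. The ranges over libraries overlapped between Rela (53.9 to 63.8 FPKM) and Nfkb2 (41.0 to 63.9), Nfkb2 and Ltbr (32.6 to 43.9), Ltbr and Relb (24.7 to 37.5), Relb and Nfkb1 (22.9 to 35.5), and Map3k14 (5.46 to 9.90) and Traf3 (4.17 to 7.53). Per length, the canonical subunit Rela thus exceeded its non-canonical counterpart Relb in every library, while the non-canonical precursor Nfkb2 exceeded Nfkb1 in every library. The highest library was 1.55 times the lowest in the median over the 10 genes, and 2.26 times in the median over the 11089 tested genes above 0 in every library.

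No member passed the test in any comparison. Between type III and type I ECs 0 of the 10 passed an adjusted p of 0.05 in limma, and 4.14% of all tested genes did (485 of 11717). The count of members was also 0 for type II against type I ECs, where 0.393% of tested genes passed, and for type III against type II ECs, where 0.222% passed. At an unadjusted p of 0.05 the members again gave 0 in each comparison, against 14.1%, 7.48% and 9.99% of tested genes. With the replicate number as a block, 971, 183 and 229 of all genes passed and still 0 members. A p that misses the threshold does not show that the subsets act alike. For type III against type I ECs the intervals of the 10 genes reached from 1.48-fold lower to 2.36-fold higher on the FPKM + 1 scale, so with 2 libraries a subset each interval still included 0 and differences of the size that it spans.

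On the deposited scale the signs leaned one way without passing a test. All 10 fitted differences of type III minus type I ECs were above 0, with a median of 0.32 against 0.08 for all tested genes. The share of all tested genes above 0 is not given. With scaling 8 of the 10 were above 0, with a median of 0.23 against 0.01 for all tested genes. With quantile normalization 7 were above 0, with a median of 0.22 against 0.01. In 7 of the 10 genes the type III libraries were above the type I libraries without overlap, where 20.7% of tested genes were. After scaling the number was 4 (Tnfrsf1b, Relb, Map3k14 and Traf3), where 22.6% of tested genes were, and the differences of Ltbr and Rela turned to -0.08. Between type III and type II ECs, 7 genes were higher without overlap on the deposited scale (27.7% of tested genes), but the median of all tested genes was itself shifted by 0.14, and after scaling only Map3k14 remained (19.9% of tested genes). Between type II and type I ECs, 4 genes (Nfkb1, Nfkb2, Map3k14 and Traf3) were higher without overlap (13.0% of tested genes) and 2 (Ltbr and Rela) lower (20.6%), and after scaling 6 were higher (19.6%) and 1, Ltbr, was lower (21.0%). These comparisons share their samples pairwise, so their counts are not independent of each other.

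**Figure D2:**
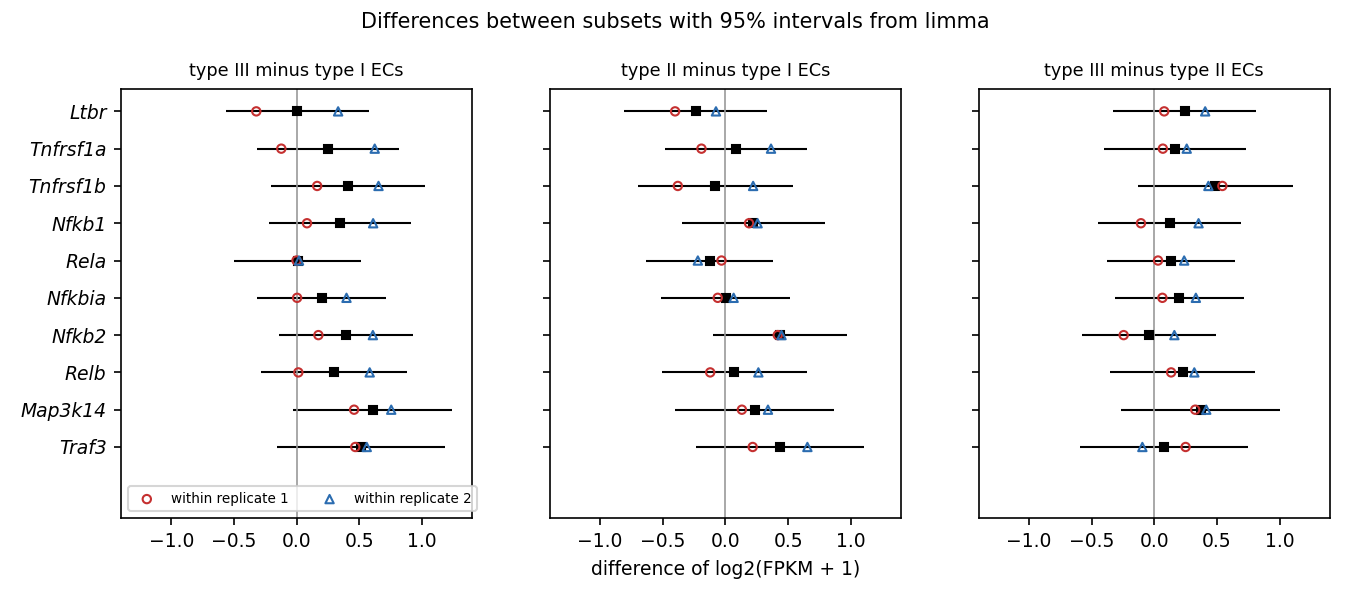
Differences of log2(FPKM + 1) for the 10 genes in the 3 comparisons. Black squares are the limma estimates from all 6 libraries with their 95% intervals, and open circles and triangles are the differences within replicate 1 and within replicate 2. Every interval includes 0, and the interval of Map3k14 in the left panel, -0.03 to 1.24, comes closest to leaving it out.

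The replicates did not weigh equally. The second type I library had the smallest sum of FPKM of the 6, 221458, and the first type III library the largest, 300932. Within replicate 1, the difference of type III minus type I ECs lay between -0.32 for Ltbr and 0.47 for Traf3, and within replicate 2 between 0.02 for Rela and 0.75 for Map3k14. Map3k14 and Traf3 were the genes with a difference above 0.4 in both.

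The arms were compared within each library, where depth cancels. The FPKM of Nfkb2 over that of Nfkb1 was 1.76 and 1.79 in type I ECs, 2.06 and 2.04 in type II ECs and 1.87 and 1.78 in type III ECs. The ratio was highest in type II ECs, apart from both other subsets, which overlapped. Its log2 value, with 1 added to each FPKM, was 0.80 ± 0.01, 1.01 ± 0.01 and 0.85 ± 0.05 (mean ± SD, n = 2 each). The difference of type II minus type I ECs was 0.21 (exact two-sided permutation p = 0.33, which is the smallest that 2 libraries against 2 can give), and type III minus type I ECs was 0.04 (exact permutation p = 0.67).

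The FPKM of Relb over that of Rela was 0.540 and 0.392 in type I ECs, 0.506 and 0.553 in type II ECs and 0.546 and 0.587 in type III ECs. The second type I library was low and the other 5 lay close together. The log2 ratio of type III minus type I ECs was 0.29 (exact permutation p = 0.33), and it was 0.07 without the second type I library and 0.51 without the first. Over whole arms, the mean log2(FPKM + 1) of the 4 non-canonical genes minus that of the 3 canonical genes was -2.63 and -2.75 in type I ECs, -2.50 and -2.36 in type II ECs and -2.38 and -2.47 in type III ECs. Both Selp+ subsets were thus less negative than type I ECs in every library and overlapped each other, and the median difference of type III minus type I ECs was 0.45 for the 4 non-canonical genes and 0.20 for the 3 canonical ones. Within the non-canonical arm it was largest for Map3k14 (0.61) and Traf3 (0.51). The product of Traf3 keeps NIK low, so the arm mean does not measure how active the arm is.

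**Figure D3:**
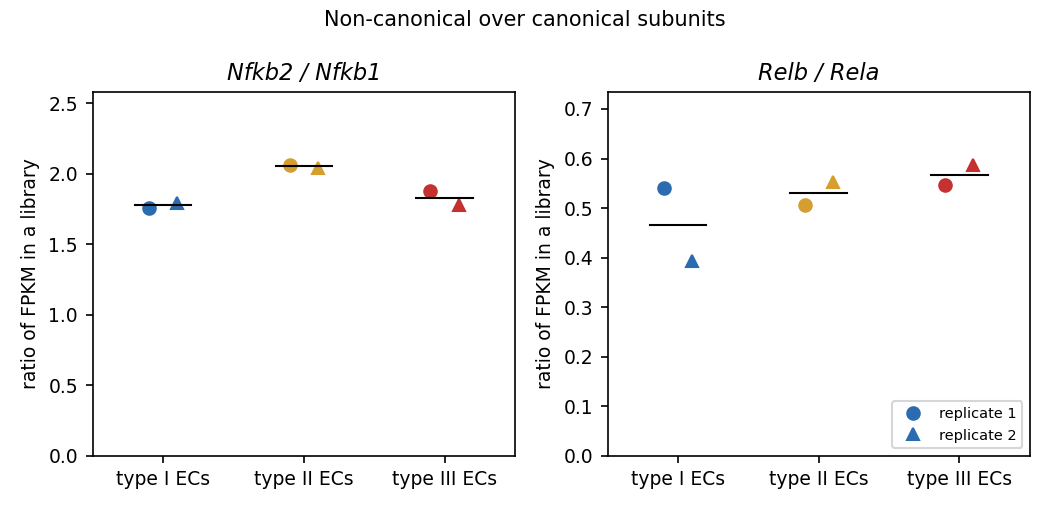
Ratio of FPKM within a library, Nfkb2 over Nfkb1 on the left and Relb over Rela on the right, for 2 libraries of each subset, with bars at the mean. On the left the type II libraries, 2.06 and 2.04, lie above the rest, and on the right the second type I library, 0.392, lies below the rest.

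Several genes of this pathway are themselves known targets of NF-kB, so their promoters were searched for the kappaB motif, on both strands and with overlapping matches counted, in the RefSeq windows from 250 bases before to 50 after a start site (GRCm38.p6, a later build than that of the FPKM tables). A window was given for 8 of the 10 genes, all but Nfkb1 and Relb. These genes have 10 windows, since Nfkb2 has 3. A match was present for 3 of the 8 genes, Nfkb2, Nfkbia and Traf3, and for 9.55% of the 27025 genes with a window, or in 5 of the 10 windows and in 8.46% of all 32851. All 3 Nfkb2 windows held matches. The first held 3, the first 2 of which overlap, and 3 or more were found in 0.186% of all windows. The second held 2 and the third 1, which is the same site as 1 of those in the second, since these windows overlap. The 120 bases before the start site are shown for the first Nfkb2 window and for Nfkbia and Traf3, 5′ to 3′ on the strand of the gene, because they hold every match of those windows, in capitals. They are chr19:46304617-46304736 (plus strand) for Nfkb2, chr12:55492648-55492767 (minus strand) for Nfkbia and chr12:111166250-111166369 (plus strand) for Traf3.
Nfkb2: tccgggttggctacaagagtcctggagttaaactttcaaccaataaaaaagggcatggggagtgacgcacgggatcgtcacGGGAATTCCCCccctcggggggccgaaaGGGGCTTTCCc
Nfkbia: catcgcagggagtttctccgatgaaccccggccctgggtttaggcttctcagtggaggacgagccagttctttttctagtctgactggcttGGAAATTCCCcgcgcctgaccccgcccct
Traf3: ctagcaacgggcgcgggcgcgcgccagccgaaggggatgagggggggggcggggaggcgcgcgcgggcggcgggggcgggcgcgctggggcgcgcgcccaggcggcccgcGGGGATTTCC
In these stretches the last match ended 2 bases before the start site in Nfkb2 and at the base before it in Traf3. A match is a description of letters and does not show that a factor binds there. Of the 3 genes, Nfkb2 and Traf3 were above type I ECs in all 4 Selp+ libraries and Nfkbia was not. Map3k14, with 0 matches in its window, was above type I ECs in all 4 as well. Ltbr, Rela, Tnfrsf1a and Tnfrsf1b, also without a match, were not. Scaling made Nfkb2 overlap between type III and type I ECs. None of the differences passed the test, and the share of all tested genes with this order is not given.

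Of the ligand genes, Ltb and Tnf were tested, and 0 of these 2 passed in limma in any comparison (Tnf had an unadjusted p under 0.05 for type III against type I ECs). Ltb, a subunit of membrane lymphotoxin, was at 6.79 and 3.72 FPKM in type I ECs, 3.81 and 2.72 in type II ECs and 8.05 and 3.18 in type III ECs, on an estimated 8 to 18.9 fragments. In every subset replicate 1 was the higher, as it was for the sums of the T cell and the myeloid and B cell markers given above. Tnf was at 3.51 and 2.29, 0.903 and 2.11, and 1.23 and 0.891 FPKM (limma adjusted p = 0.35 for type III minus type I ECs, difference -0.91). Lta and Tnfsf14, which encodes LIGHT, stayed at or below 0.459 FPKM in every library and were not tested.

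Among other receptors of the TNF receptor family, 15 were listed and 10 tested, and between type III and type I ECs 2 rose and 0 fell. Of all tested genes 2.09% rose, and the median difference of the list was -0.14 against 0.08 for all tested genes. Tnfrsf11a, which encodes RANK, another receptor that engages the non-canonical arm, was at 2.57 and 2.91 FPKM in type I ECs, 9.22 and 10.6 in type II ECs and 12.5 and 12.9 in type III ECs. Its subsets did not overlap, and its difference was 1.88 (SE 0.28, limma adjusted p = 0.0064). Tnfrsf9, which encodes 4-1BB, was at 4.70 and 1.50, 6.84 and 5.99, and 33.9 and 37.4 FPKM, a difference of 3.28 (SE 0.39, limma adjusted p = 0.0020). At the other end of the list, the death receptor gene Fas had a difference of -1.52 that missed the threshold (limma adjusted p = 0.094). With the replicate number as a block, where 4.4% of all tested genes rose and 3.89% fell, 3 of the list rose and 3 fell, Eda2r rising and Tnfrsf10b, Tnfrsf21 and Fas (limma adjusted p = 0.0045) falling beside those named, and scaling gave the same 3 that fell. The call of Tnfrsf11a was lost without the second type III library (limma adjusted p = 0.053) and that of Tnfrsf9 was kept without any single library.

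Among 17 adaptors and kinases between the receptors and NF-kB, 1 rose and 0 fell, beside 2.09% and 2.05% of all tested genes, with a median difference of 0.22 against 0.08 for all tested genes. The gene that rose was Traf1, an adaptor that is itself a known NF-kB target. It was at 8.25 and 4.69 FPKM in type I ECs, 12.7 and 12.5 in type II ECs and 19.5 and 22.4 in type III ECs, with no overlap, and the difference was 1.60 (SE 0.31, limma adjusted p = 0.021). The call was lost without the second type I library (1.24, limma adjusted p = 0.11), without the first type III library (limma adjusted p = 0.10), without the second (limma adjusted p = 0.13) and with no filter on low values (limma adjusted p = 0.058). Birc2, which encodes cIAP1, a ubiquitin ligase in the complex with TRAF3, had a difference of 1.23 that missed the threshold (limma adjusted p = 0.080), and passed with the replicate number as a block (limma adjusted p = 0.011) and with scaling (limma adjusted p = 0.021). At the low end was Traf5, with -0.26. Among the 12 other NF-kB and IkB proteins and inhibitors 0 passed in either direction in limma, 1 had an unadjusted p under 0.05, and the differences ran from -0.28 for N4bp1 to 1.29 for Tank (limma adjusted p = 0.090), with a median of 0.29. Tank, an adaptor of kinases of this pathway, passed with the block (limma adjusted p = 0.028), but not with the block and scaling together (limma adjusted p = 0.058).

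Genes linked to the canonical arm went in both directions. Of the 15, 4 rose and 1 fell between type I and type III ECs, beside 2.09% and 2.05% of all tested genes, with a median difference of 0.25. Sele, which encodes E-selectin, an adhesion molecule induced on activated endothelium, was at 12.7 and 8.85 FPKM in type I ECs, 207 and 205 in type II ECs and 269 and 283 in type III ECs, a difference of 4.58 (SE 0.24, limma adjusted p = 3.0e-05). Vcam1 encodes a ligand for integrins of leukocytes, and the study names it among genes downstream of LTbR. Its levels were 55.7 and 22.2, 110 and 94.8, and 276 and 162 FPKM, a difference of 2.55 (SE 0.42, limma adjusted p = 0.0094). In each of these genes both type III libraries were the highest. Csf3, which encodes the growth factor G-CSF, was at 3.02 and 10.1, 40.8 and 55.0, and 79.9 and 98.2 FPKM, and rose by 3.74 (SE 0.43, limma adjusted p = 0.0017). Ptgs2, a prostaglandin synthase gene, was at 2.18 and 0.582, 2.98 and 1.84, and 8.79 and 7.08 FPKM, and rose by 1.99 (SE 0.42, limma adjusted p = 0.030). Cx3cl1, which encodes fractalkine, a membrane-bound chemokine, went the other way, at 40.3 and 33.6, 28.0 and 22.1, and 10.6 and 10.8 FPKM, and fell by 1.69 (SE 0.26, limma adjusted p = 0.0069). Icam1 and Nfkbia, both classical targets, had differences of 0.25 and 0.20 and did not pass. With the replicate number as a block 5 of the 15 rose and 4 fell, with Sod2 added to those that rose and Ccl2, Cxcl1 and Cxcl2 to those that fell.

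Of these calls, those of Sele and Csf3 were kept without any single library. Leaving out single libraries gave differences of 1.91 to 3.19 for Vcam1, which lost its call without the first type III library. Cx3cl1 lost it without the first or the second type III library (limma adjusted p = 0.056 and 0.054). Ptgs2 lost it without the second type I library or either type III library (limma adjusted p = 0.18, 0.19 and 0.097), and also with a pseudocount of 0.1 (limma adjusted p = 0.053). With no filter on low values Vcam1 and Ptgs2 lost their calls (limma adjusted p = 0.057 and 0.11).

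Of 10 genes linked to the non-canonical arm, 3 were tested. Ccl19 and Ccl21a were listed at 0 in all 6 libraries. Cxcl12, a chemokine gene, was at 521 and 360 FPKM in type I ECs, 245 and 152 in type II ECs and 50.6 and 36.8 in type III ECs, and fell by 3.30 (SE 0.31, limma adjusted p = 0.00063). Enpp2, which encodes autotaxin, an enzyme known from high endothelial venules, was at 81.5 and 42.8, 278 and 229, and 422 and 314 FPKM, and rose by 2.60 (SE 0.32, limma adjusted p = 0.0025). Glycam1 encodes a sulphated ligand of L-selectin on high endothelial venules. It was listed at 0 in both type I libraries, at 0 and 0.635 FPKM in type II ECs and at 33.1 and 55.0 in type III ECs (limma adjusted p = 0.00015, no fold given against 0). Glycam1 passed the filter on low values only through the type III libraries, where it was high. Its calls for type III ECs, here and below, are therefore a description and no independent support. Madcam1, another gene of that list, was at 1.10 FPKM or below in every library. Outside the comparison of type III with type I ECs few genes of these lists passed. For type II minus type I ECs they were Sele (4.16), Csf3 (2.86) and Enpp2 (2.08), beside 0.393% of all tested genes. For type III minus type II ECs they were Glycam1 and Cxcl12 (-2.13), beside 0.222% of all tested genes. Here Sele and Glycam1 kept their calls without any single library, while Cxcl12 lost its call without any one of the 6, Csf3 without any type II or type III library, and Enpp2 without any but the first type I library. For type II minus type I ECs, Csf3 and Enpp2 also lost their calls with a pseudocount of 0.1, with no filter on low values, without the trend and in a fit of only the samples compared, and Csf3 with scaling and with quantile normalization. Between type III and type II ECs, Glycam1 lost its call with no filter, and Cxcl12 with no filter, a pseudocount of 0.1, no trend or only the samples compared. With the block, where 1.56% and 1.95% of all tested genes passed, Tnfrsf11a, Vcam1 and Cxcl12 also passed for type II minus type I ECs, and Tnfrsf9, Cxcl1 and Cx3cl1 for type III minus type II ECs.

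**Figure D4:**
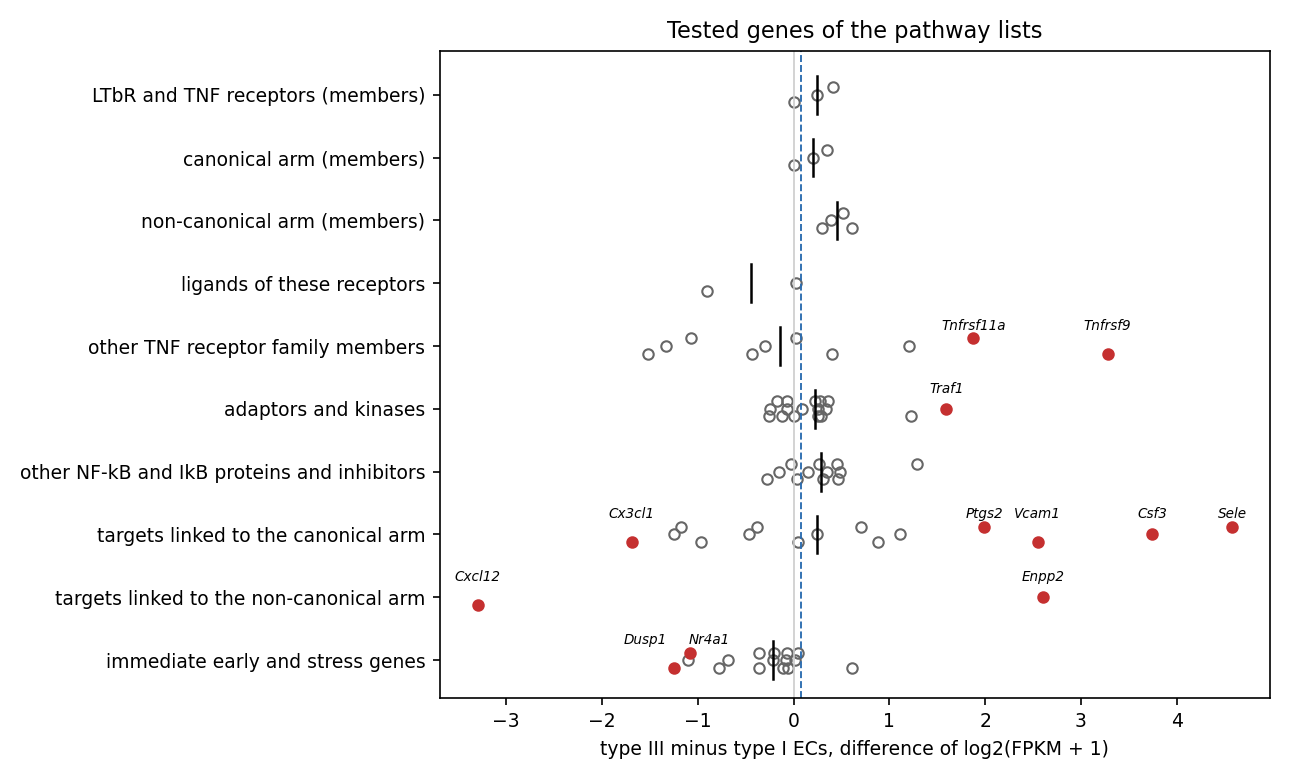
Difference of log2(FPKM + 1), type III minus type I ECs, for each tested gene of the lists. Filled red points are genes with a limma adjusted p under 0.05 and open points are the others, black bars are medians of a list, and the dashed line is the median of all tested genes, 0.08. Glycam1, listed at 0 in both type I libraries, is not drawn, nor is a median for its list. The 10 members lie between 0.00 and 0.61, while Sele, Csf3 and Tnfrsf9 lie above 3.

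Immediate early genes, which are known to respond to tissue digestion, were high in every library. The 16 immediate early and stress genes summed to 6364 and 5095 FPKM in type I ECs, 5305 and 4995 in type II ECs and 4337 and 5138 in type III ECs. Of the 16, 0 rose and 2 fell between type I and type III ECs, with a median difference of -0.21, and of all tested genes 2.09% rose and 2.05% fell. With the replicate number as a block 4 of the 16 fell, and 3.89% of all tested genes. Dusp1, a phosphatase gene, was at 307 and 286 FPKM in type I and 111 and 139 in type III ECs, and fell by 1.25 (limma adjusted p = 0.015). Its call was lost without the second type II library (limma adjusted p = 0.051), the first type III library (0.17) or the second (0.065). Nr4a1, a nuclear receptor gene, fell by 1.08 (limma adjusted p = 0.029), and the call was kept without the second type I library (0.046) and lost without any other (0.079 to 0.19). Without the trend in limma both calls were lost (0.060 and 0.093). Nfkbia, also a gene of fast induction, was at 628 and 689 FPKM in type III ECs. The part of digestion and sorting in the levels of the 10 genes was not tested.

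Of the marker lists, 2 genes passed between type III and type I ECs. Kdr, a VEGF receptor gene and 1 of 8 endothelial markers, fell by 1.49 (limma adjusted p = 0.0079), from 206 and 173 FPKM in type I ECs to 63.4 and 70.2 in type III ECs. Pdgfrb, a receptor gene of pericytes and 1 of 7 pericyte and fibroblast markers, fell by 1.85 (limma adjusted p = 0.013), from 39.0 and 24.2 to 6.40 and 9.43 FPKM. The call of Kdr was lost without either type III library, and that of Pdgfrb without the first type I or the first type III library. In the T cell (9 tested), myeloid and B cell (6), thymic epithelial (6) and lymphatic (4) lists 0 passed in limma, and with the replicate number as a block Cd3g, Cd3d, Cd74 and Prox1 rose and Krt5, Flt4 and, among the pericyte markers, Rgs5 fell.

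The genes whose pattern over the 6 libraries was most like that of a member were taken by the smallest root mean square distance of centred log2(FPKM + 1), among 4196 genes with a mean of at least 10 FPKM. For Ltbr these were App (distance 0.05), Cbfa2t3 (0.05) and Snx17 (0.06), where the median gene was at 0.30. For Relb they were Tcn2, Sh3gl1 and Slc43a3 (0.03 each, median gene 0.28). App, for example, was at 489 and 423, 367 and 401, and 413 and 504 FPKM, with the dip in type II ECs that Ltbr showed on the deposited scale. After scaling, Ltbr was at 36.5 and 40.9, 31.8 and 36.2, and 29.7 and 44.5 FPKM, and type II and type III ECs overlapped. The 6 points share library and depth, and the likeness is a description.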

How the data were processed

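RNA of 3 sorted thymic EC subsets was measured by RNA-seq in 2 libraries each. From trimmed reads mapped to mm9, the authors computed gene levels in each library and deposited FPKM with 95% intervals. The submitters' processing notes name CASAVA 1.8, TopHat2 2.0.10, Cufflinks 2.1.1 and Cuffdiff. The annotation is not given in the sources used here. Each table had 24552 rows, of which the 95 that name no chromosomal gene (spike-ins, reporters) were dropped.

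Genes with at least 1 FPKM in at least 2 samples (11717) were tested on log2(FPKM + 1), which understates the change of low genes, with limma 3.58.1 in R 4.3.3 (lmFit, eBayes with trend, all 6 samples in 1 fit), and p-values were adjusted by Benjamini-Hochberg over all tested genes at 0.05. Cuffdiff, used in the study, needs reads. The study's list of genes differing between type I and type III ECs by Cuffdiff holds no member. It does hold Fas, Tnfrsf10b, Tnfrsf21, Birc2, Tank, Cxcl1, Sod2 and others that missed the threshold in the main fit here. Fragments were estimated from the intervals as counting error alone, and 3 corresponded to a median of 0.404 to 0.716 FPKM. Deviations from the subset means of libraries with the same replicate number in the labels correlated in each pair of subsets (r = 0.20, 0.31 and 0.18 across 11717 genes). The main fit left this number out, and a fit with the number as a block was an alternative. The others were pseudocounts of 0.1 and 0.5, other filters and scalings, no trend, only the 4 samples compared and each library left out. The fit was tested on simulated data with planted differences larger than any seen for a member, so that run does not bear on the members. Members and gene lists were chosen with earlier results of these data known. Named are all members, list genes past the threshold in type III against type I ECs, the genes that set a list's range, and the 3 genes most like Ltbr and Relb. Birc2, Icam1, Madcam1, Ccl19, Ccl21a and the genes called only with the block were added after their values were seen. Loci were read from the tables, and strand and overlaps from GENCODE on the same assembly.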

Additional observations from a re-analysis of the deposited data

Results flagged for a closer look

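The tables also held rows for reporter sequences, which no comparison used. RGC-mRFP was above 0 in all 6 libraries, at 18.2 and 1.83 FPKM in type I ECs, 23.7 and 5.31 in type II ECs and 28.3 and 3.23 in type III ECs, on an estimated 4.00 to 34.2 fragments. Replicate 1 was the higher in each subset. RGC-GFP reached 2.37 FPKM in the second type III library, on an estimated 5 fragments, and was at 0 in the second type II library. They were listed because they are a signal outside the rows of genes, and their cause was not tested.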

How the results depend on the processing

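Of the members, Map3k14 rested on the fewest estimated fragments, 67.0 to 152 per library. No member passed under any of the 16 alternatives in any comparison, 480 fits in all (lowest limma adjusted p = 0.17, with 7 unadjusted p under 0.05). For type III minus type I ECs the replicate block lost no call of the named list genes and added the calls given beside their lists, and it changed no call of a member. The number of all genes called moved more. For type III minus type I ECs (485) it was 317 with no filter, 971 with the block, 1195 with the block and scaling (chosen after seeing the data), and 209 to 404 without 1 library. For type II minus type I ECs (46) these were 12, 183, 273 and 12 to 33, and 97 with scaling, 103 with quantile normalization, 15 without trend and 29 with only the samples compared. For type III minus type II ECs (26) they were 0 with no filter in limma (1354 at an unadjusted p of 0.05), 229, 301, 2 to 14, 85, 90, 10 and 7. The cause was not tested.

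Differences of members near 0 changed sign. For type III minus type I ECs these were Ltbr with scaling (-0.084, also with the block), with quantile normalization (-0.096) and without single libraries (-0.17 to 0.18), Rela with scaling (-0.082, also with the block) and quantile normalization (-0.058), and Nfkbia with quantile normalization (-0.065). For type II minus type I ECs, leaving out single libraries gave -0.16 to 0.33 for Tnfrsf1a, -0.25 to 0.091 for Tnfrsf1b, -0.13 to 0.13 for Nfkbia, -0.16 to 0.30 for Relb and -0.027 to 0.42 for the log2 ratio of Relb over Rela. For type III minus type II ECs, scaling, with and without the block, gave -0.020 for Nfkb1, -0.012 for Rela and -0.054 for Traf3, and quantile normalization gave -0.018 for Tnfrsf1a, -0.085 for Nfkb1, -0.024 for Rela, -0.12 for Nfkbia and -0.057 for Traf3. There, leaving out single libraries gave -0.025 to 0.27 for Nfkb1, -0.15 to 0.071 for Nfkb2 and -0.014 to 0.17 for Traf3. Map3k14, Tnfrsf1b and Relb kept their sign for type III ECs under every alternative, against type I and against type II ECs. Tnfrsf1a, Nfkb1, Nfkb2 and Traf3 did so against type I ECs only, and Ltbr against type II ECs only.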
